A study of Mus musculus with 6 samples.

Results

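Eicosanoid and phospholipid mediator enzymes make, remodel or degrade the signalling lipids that are cut from cell membranes. The genes described here were found by a rule on gene names, as protein-coding genes whose symbols begin as those of the cyclooxygenases and prostaglandin synthases, lipoxygenases and leukotriene synthases, phospholipases A and D, epoxide hydrolases, lysophospholipid acyltransferases, lipid phosphate phosphatases, autotaxin, sphingosine kinases, ceramide synthases, sphingomyelinases and ceramidases. The deposited table listed 57 such genes among its 12163 genes. The annotation holds 95 protein-coding genes that match the names, and the other 38, among them Ptgs1, Alox15, Lta4h, Hpgds, Lpcat1 and Cers2, were not analysed here. The names also took in a few relatives with other or no known activity of this kind, such as the Plppr genes and Sphkap, which are pointed out where they appear.

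In this system a phospholipase A frees arachidonic acid from membrane phospholipids. Cyclooxygenases and terminal synthases turn it into prostaglandins, prostacyclin and thromboxane, lipoxygenases turn it into leukotrienes, and cytochrome P450 enzymes turn it into epoxides that epoxide hydrolases open. The lysophospholipid left behind can become platelet-activating factor (PAF) or lysophosphatidic acid, while ceramide and sphingosine 1-phosphate arise from sphingomyelin. In fat, prostaglandin E2 is known to hold back lipolysis through its receptor Ptger3, and adipocytes secrete autotaxin.

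The samples were fat tissue from wild type C57BL/6 mice, as 3 libraries of grafts on day 7 post grafting and 3 libraries of fat before grafting. All 6 came from the same strain and genotype with no further allele or agent. No label states the fat depot, the graft site, the age and sex of the animals, or whether the donors were also the hosts. The design text calls the libraries of a group biological replicates. Values are normalized reads, that is, reads per gene divided by 1 size factor per library, with 13027776 to 15924559 reads per library in the listed genes.

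Nearly all of the table separates the groups. Its 12163 genes look chosen for their difference, so the shares given here describe the listed genes and not all genes. Of 10854 genes tested with limma on the log2 scale, 41.3% were called higher and 39.2% lower in grafts at a Benjamini-Hochberg adjusted p under 0.05, 80.4% in either direction, and 97.6% had groups that did not overlap. Cell type markers moved with the same comparison. All 12 adipocyte markers were called lower in grafts, with summed levels of 7508 to 30554 in grafts against 544189 to 751814 before grafting. Of 8 listed macrophage markers 7 were called higher, with sums of 187825 to 197628 in grafts against 21951 to 24768 before grafting. Of 9 listed neutrophil markers 8 were called higher and 1 lower, with sums of 58340 to 93634 in grafts against 765 to 915 before grafting. All 7 listed T and NK cell markers (sums of 296 to 699 in grafts, 3759 to 6484 before grafting) and all 7 B cell markers (178 to 424 in grafts, 5814 to 12363 before grafting) were called lower. Other lists were mixed: 2 of 3 platelet markers were called higher and 1 lower (sums of 3718 to 13811 in grafts, 626 to 715 before grafting), and of 7 fibroblast and progenitor markers 3 were called higher and 2 lower (34920 to 55273 in grafts, 24723 to 27105 before grafting). Counts of higher and lower calls were 1 and 1 of 6 mast cell, 1 and 2 of 4 eosinophil, 0 and 2 of 4 blood endothelial, 1 and 4 of 6 lymphatic endothelial, 1 and 1 of 2 mesothelial and 2 and 0 of 2 epithelial markers tested. No skeletal muscle or male tract marker was listed. The part of these shifts in the enzyme genes was not tested, and in bulk tissue fewer cells of a type and less RNA per cell cannot be told apart.

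The enzyme genes changed in both directions. Of the 57 genes, 52 passed the filter on low values, 29 of these were called higher in grafts and 19 lower, 4 were not called and 5 were too low to test. Their median log2 fold change (grafts over before grafting) was 0.85, against 0.28 for all tested genes. All 57 had groups that did not overlap, which in this table holds for nearly every gene. With the ribosomal protein genes set to no change, which lowers every log2 fold change by about 0.77, 18 were called higher and 22 lower, and 25.6% of the calls over all tested genes were then in the higher direction, against 51.3% as deposited. With equal upper quartiles that share was 39.8%. Under the 4 other scalings Pld2, Plppr2 and Sgpp1 changed direction, all 3 with the ribosomal protein genes at no change, and the other 45 called enzyme genes kept theirs.

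**Figure D1:**
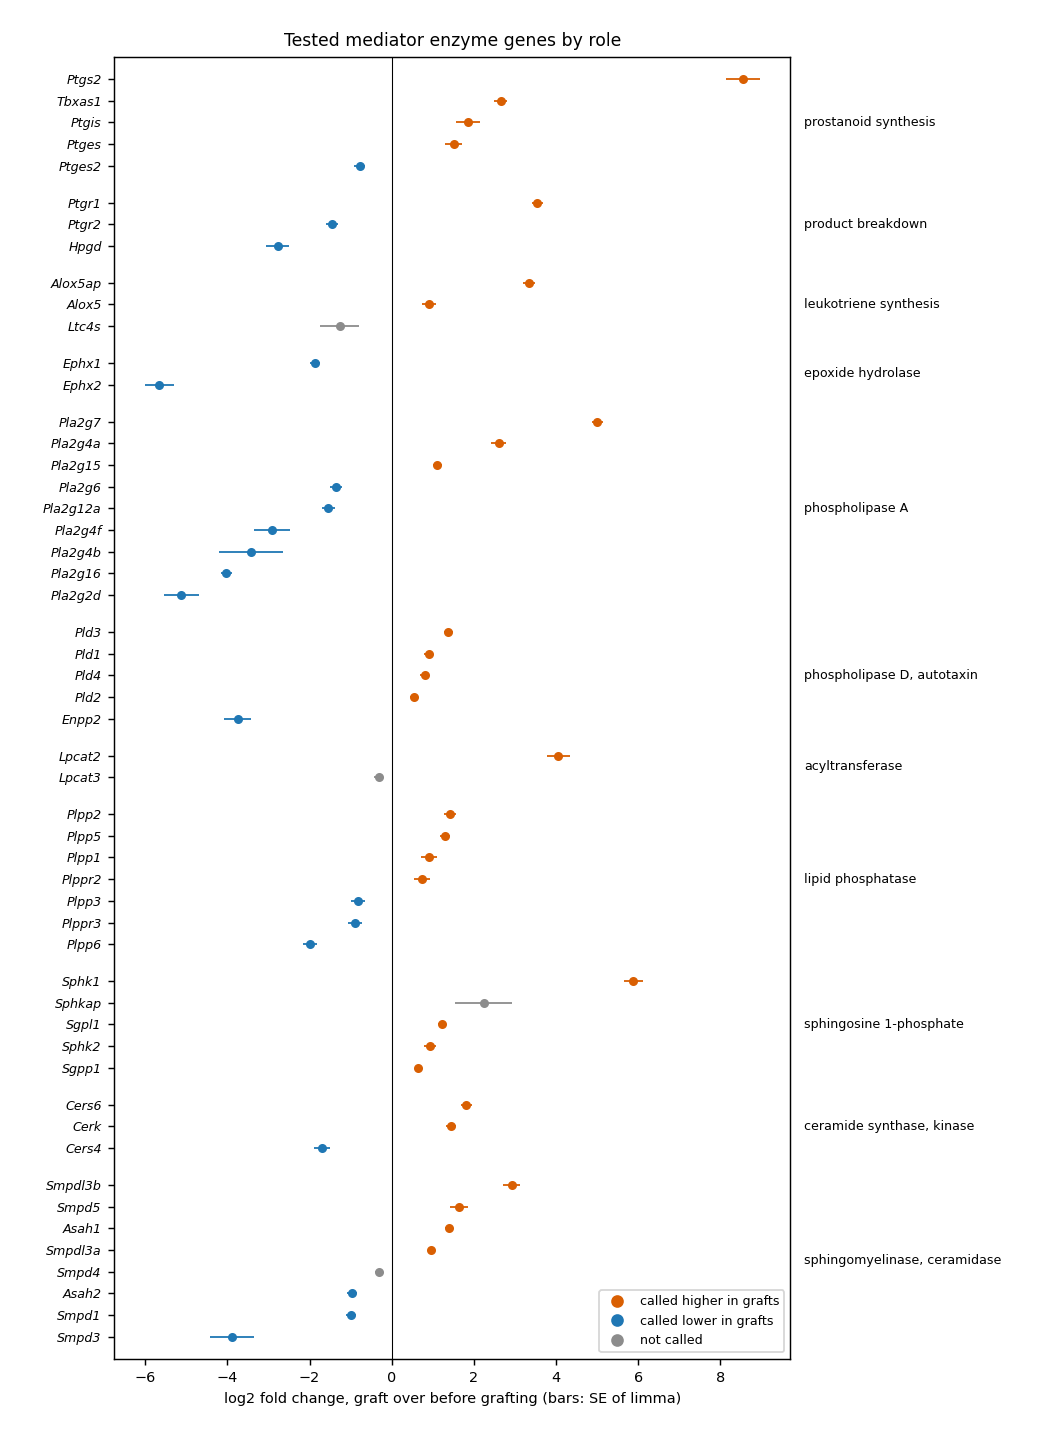
Log2 fold change of grafts over before grafting for the 52 tested enzyme genes, ordered by role, with the SE of limma as bars and 3 libraries per group. Orange points were called higher in grafts, blue points lower, grey points not called. Ptgs2 lies farthest to the right at 8.55 and Ephx2 farthest to the left at -5.66.

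The sequences just upstream of 4 genes with large changes are printed to show what the promoters of the most changed genes look like. They are the 2 largest rises and the 2 largest falls among the genes given with every library below that have a single start in the RefSeq promoter table of GRCm38.p6, and each is the 250 bases before that start, 5′ to 3′ on the strand of the gene, with motif matches in capitals. Searched on both strands were TATAAA, the AP-1 motif TGANTCA, the E-box CACGTG, the C/EBP motif TTNNGCAA, the NF-kB motif (GGG, any 2 bases, TTTCC) and the SP1 motif GGGCGG, and no 2 matches of different motifs overlapped in these windows.
Ptgs2, chr1:150099781-150100030, + strand: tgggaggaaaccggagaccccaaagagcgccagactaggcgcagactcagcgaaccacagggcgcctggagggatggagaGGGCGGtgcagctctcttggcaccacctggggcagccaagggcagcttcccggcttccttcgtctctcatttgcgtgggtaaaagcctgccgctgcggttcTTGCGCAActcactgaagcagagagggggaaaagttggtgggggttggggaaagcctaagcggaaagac
Pla2g7, chr17:43568201-43568450, + strand: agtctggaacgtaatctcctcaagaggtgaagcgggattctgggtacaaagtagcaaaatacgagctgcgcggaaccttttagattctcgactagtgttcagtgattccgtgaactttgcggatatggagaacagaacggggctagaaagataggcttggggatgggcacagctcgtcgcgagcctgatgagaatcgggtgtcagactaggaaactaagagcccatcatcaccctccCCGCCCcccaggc
Pla2g2d, chr4:138775485-138775734, + strand: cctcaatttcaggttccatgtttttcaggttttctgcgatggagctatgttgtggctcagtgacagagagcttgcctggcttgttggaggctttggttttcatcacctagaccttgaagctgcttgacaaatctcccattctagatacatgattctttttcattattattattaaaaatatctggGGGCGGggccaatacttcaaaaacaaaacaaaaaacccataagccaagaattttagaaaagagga
Hpgd, chr8:56294302-56294551, + strand: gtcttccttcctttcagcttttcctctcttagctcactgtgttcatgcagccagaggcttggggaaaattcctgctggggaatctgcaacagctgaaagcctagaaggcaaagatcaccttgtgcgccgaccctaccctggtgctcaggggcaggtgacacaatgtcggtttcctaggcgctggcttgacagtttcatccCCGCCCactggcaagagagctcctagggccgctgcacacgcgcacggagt
Ptgs2 held a C/EBP match that reads the same on both strands, 69 bases upstream of the start, and an SP1 match 170 bases upstream. Pla2g7, Pla2g2d and Hpgd each held 1 SP1 match, at 13, 65 and 50 bases upstream. Of 32841 windows of the same length in the table, 9.57% held the C/EBP motif and 32.8% the SP1 motif. Among the 45 enzyme genes with an entry, the SP1 motif was found for 15 of 22 called higher and 6 of 14 called lower, the AP-1 motif for 4 of 22 and 1 of 14 (6.75% of all windows), and the TATAAA motif for 5 of 22 and 1 of 14 (12.4% of all windows). The C/EBP motif was found for 4 of 22 higher and 1 of 14 lower, and the NF-kB motif for none of either (1.41% of all windows). The enzyme counts are of genes and the shares are of windows, so they are unlike measures. A difference between them was not tested.

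Among the listed genes, prostanoid synthesis in grafts was led by Ptgs2, the inducible cyclooxygenase. Ptgs2 had 3505, 11493 and 7417 normalized reads in grafts, against 14.8, 23.3 and 13.8 before grafting. The lowest graft library lay far above the highest library before grafting, although the grafts differed widely among themselves. Its log2 fold change was 8.55 ± 0.41 (SE; limma, adjusted p = 6.62e-06), the largest rise of the 52 tested enzyme genes. Per kb of gene length Ptgs2 made up 60.4% of the summed level of the 6 listed prostanoid synthesis genes in grafts, whereas Ptges led before grafting with 61.8%. Ptgs1, Hpgds and Ptges3 were not listed, so these shares leave them out.

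Of the 5 listed terminal synthases, 3 were called higher, Ptges2 was called lower and Ptgds was too low to test. Ptges, the inducible microsomal prostaglandin E synthase, had 3231, 3530 and 2085 reads in grafts and 821, 1202 and 1049 before grafting. Its log2 fold change of 1.51 ± 0.22 (limma, adjusted p = 0.00157) stayed positive at 0.74 with the ribosomal protein genes at no change, where it was not called (adjusted p = 0.0617). Ptges2, the constitutive membrane-associated form, was called lower, with 272, 267 and 258 reads in grafts and 409, 529 and 443 before grafting (log2 fold change -0.78 ± 0.13). Of the summed per kb level of these 2 genes, Ptges held 93.9%, 94.5% and 91.2% in grafts, against 72.1%, 74.5% and 75.3% before grafting.

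Tbxas1, thromboxane A synthase, had 1073, 942 and 830 reads in grafts, against 159, 163 and 129 before grafting. Ptgis, prostacyclin synthase, had 500.2, 505 and 256 reads in grafts, against 90.7, 132 and 112 before grafting. Both groups stayed apart for both genes, as in 97.6% of all tested genes. The log2 fold changes were 2.65 ± 0.15 (limma, adjusted p = 1.1e-05) for Tbxas1 and 1.86 ± 0.29 (limma, adjusted p = 0.00228) for Ptgis. The share of Ptgis in their summed per kb level was 60.0% ± 6.93 in grafts and 72.2% ± 4.60 before grafting (SD, n = 3 each). Ptgds, the lipocalin-type prostaglandin D synthase, had no read in any graft library, against 14.8, 3.04 and 14.8 normalized reads before grafting. Its mean before grafting was 3.67-fold a floor of 3 reads per library in grafts, a ratio that leaves out counting error. Ptgds was too low to test.

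On the side of prostanoid breakdown, 1 gene rose and 2 fell. Hpgd, the dehydrogenase that begins the inactivation of prostaglandin E2, had 66.3, 116 and 152 reads in grafts, against 671, 740 and 783 before grafting (log2 fold change -2.78 ± 0.28; limma, adjusted p = 0.000214). Ptgr2, a prostaglandin reductase, had 450, 373 and 372 reads in grafts, against 970, 1322 and 995 before grafting (log2 fold change -1.45 ± 0.15; limma, adjusted p = 0.000237). The other reductase moved the opposite way. Ptgr1, which also inactivates leukotriene B4, had 1451, 1571 and 1248 reads in grafts, against 124, 130 and 108 before grafting (log2 fold change 3.55 ± 0.13; limma, adjusted p = 2.14e-06). As deposited, the summed per kb level of the 3 genes overlapped between the groups, at 754 ± 60.0 in grafts and 672 ± 51.9 before grafting (SD, n = 3 each), but its main contributor was Ptgr1 in grafts (82.3%) and Hpgd before grafting (64.7%). The sum was lower in grafts with the ribosomal protein genes at no change, at 578 against 879 before grafting, with no overlap. Of the exon bases of Ptgr2, 32% are shared with the antisense-strand gene Gm47484, whose reads cannot be told apart if the counting did not use strand.

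**Figure D2:**
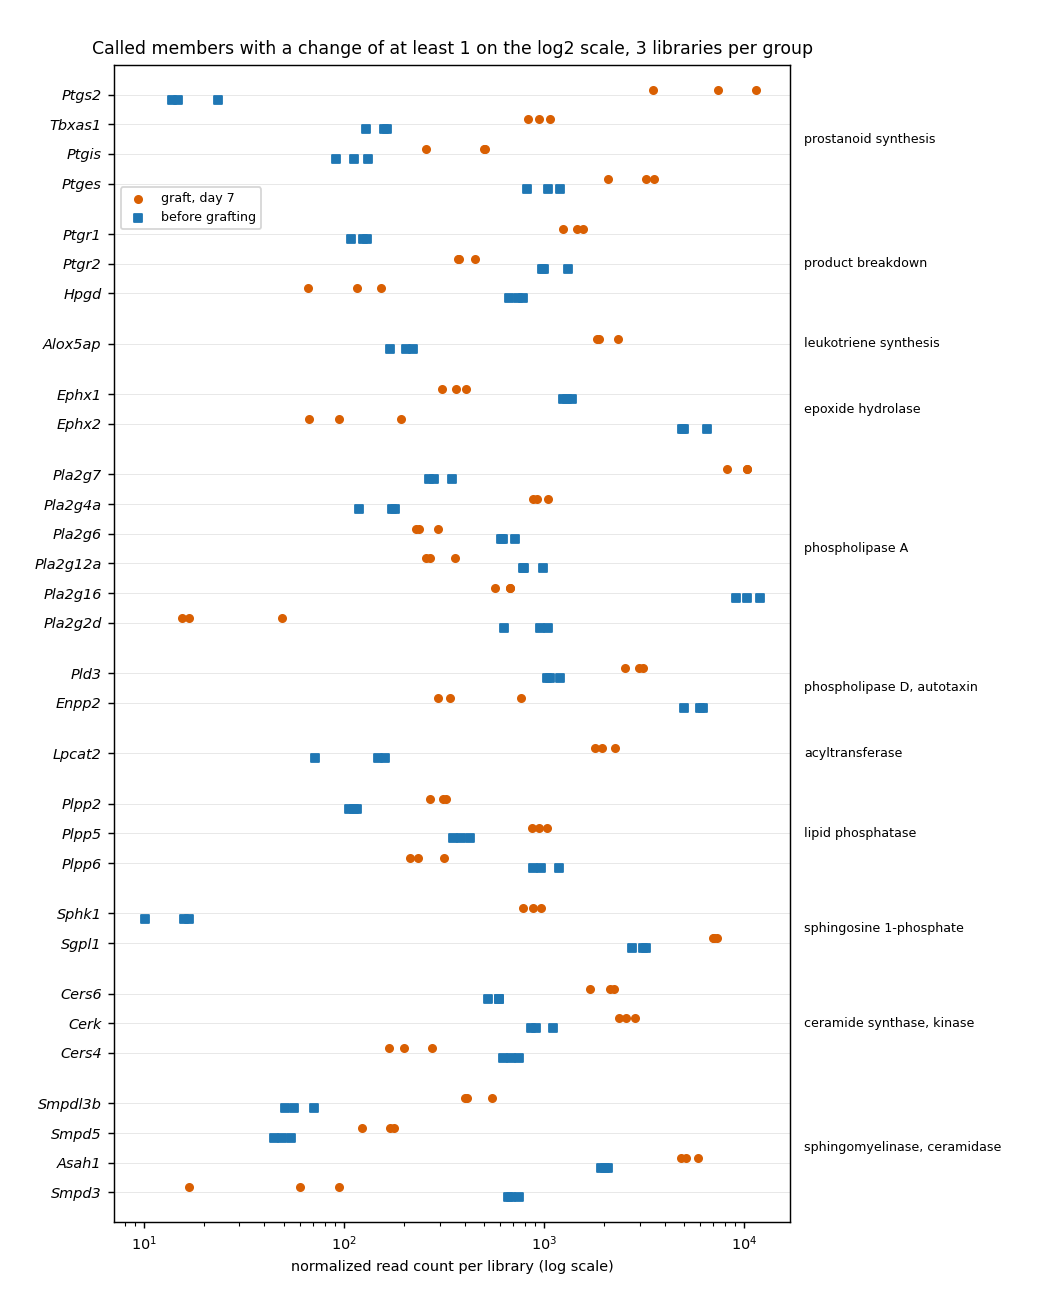
Normalized reads per library (log axis) of the called enzyme genes with a log2 change of 1 or more in size and a mean of 100 or more in the higher group, at most 6 per role. Orange circles are the 3 graft libraries and blue squares the 3 libraries before grafting. No gene shown has overlapping groups, as in 97.6% of all tested genes. Smpd3, Ptgs2, Pla2g2d and Ephx2 have the widest spread among the grafts.

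Leukotriene synthesis was described by 3 listed genes. Alox5ap, the membrane protein that presents arachidonic acid to 5-lipoxygenase, had 2331, 1834 and 1877 reads in grafts, against 220, 204 and 169 before grafting (log2 fold change 3.34 ± 0.14; limma, adjusted p = 3.3e-06). Alox5, the 5-lipoxygenase itself, had 439, 313 and 302 reads in grafts, against 168, 193 and 192 before grafting. Its log2 fold change of 0.91 ± 0.18 (limma, adjusted p = 0.00815) was smaller, and with the ribosomal protein genes at no change it was 0.15 and not called. Within the pair, Alox5ap held 93.9%, 94.4% and 94.7% of the summed per kb level in grafts and 79.1%, 75.4% and 71.8% before grafting.

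Ltc4s, leukotriene C4 synthase, did not pass the test. It had 142, 88.3 and 32.6 reads in grafts and 167, 199 and 178 before grafting, with a log2 fold change of -1.27 ± 0.47 (limma, adjusted p = 0.144). Its value rests on single graft libraries, since the log2 fold change was -1.73 without graft replicate 1 (limma, adjusted p = 0.0187) and -0.69 without graft replicate 3 (limma, adjusted p = 0.16). With the ribosomal protein genes at no change it was called lower, at -2.03 (limma, adjusted p = 0.0118), and 26.4% of its exon bases are shared with Gm26542 on the other strand. Ltc4s led the per kb sum of the 3 genes before grafting with 49.3%, whereas Alox5ap led in grafts with 89.2%.

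Both listed epoxide hydrolases fell. Ephx2, the soluble epoxide hydrolase that opens epoxyeicosatrienoic acids, had 192, 66.9 and 94.0 reads in grafts, against 4895, 6541 and 4971 before grafting. This was the largest fall of the 52 tested enzyme genes (log2 fold change -5.66 ± 0.35; limma, adjusted p = 2.28e-05). Its size was near the median of -5.75 of the 12 adipocyte markers and that of -5.49 of the 7 B cell markers. Whether the fall of Ephx2 is linked to either was not tested. Ephx1, the microsomal form, fell less, with 409, 362 and 308 reads in grafts against 1301, 1374 and 1246 before grafting (log2 fold change -1.87 ± 0.13; limma, adjusted p = 2.43e-05). The share of Ephx1 in their summed per kb level was thus 73.1%, 87.3% and 80.7% in grafts, against 25.3%, 21.1% and 24.2% before grafting.

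Phospholipases A split into 3 genes called higher and 6 called lower. Pla2g7, the plasma form of PAF acetylhydrolase, which is known to be made by macrophages and degrades PAF, had 8219, 10343 and 10332 reads in grafts, against 347, 283 and 265 before grafting. Its log2 fold change was 5.01 ± 0.14 (limma, adjusted p = 7.12e-07). Pla2g4a, the cytosolic phospholipase A that frees arachidonic acid for eicosanoid synthesis, had 920, 1044 and 874 reads in grafts, against 180, 119 and 173 before grafting (log2 fold change 2.60 ± 0.18; limma, adjusted p = 2.78e-05). Both rises exceeded the spread within either group. Pla2g15, a lysosomal phospholipase A, had 1672, 1322 and 1452 reads in grafts and 688, 735 and 626 before grafting, with a log2 fold change of 1.11 ± 0.12 that was 0.35 and not called with the ribosomal protein genes at no change.

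Among those that fell, Pla2g16, the phospholipase of adipocytes also known as AdPLA, had 675, 676 and 570 reads in grafts, against 9139, 11938 and 10318 before grafting (log2 fold change -4.02 ± 0.13; limma, adjusted p = 1.08e-06). Pla2g2d, a secreted phospholipase known from dendritic cells and lymphoid organs, had 49.2, 15.5 and 16.8 reads in grafts, against 1040, 628 and 958 before grafting (log2 fold change -5.13 ± 0.43; limma, adjusted p = 8.12e-05). Pla2g2d thus fell in the libraries in which the lymphocyte markers were low, the median log2 fold change of the 7 B cell markers being -5.49 and that of the 7 T and NK cell markers -3.37. The 12 adipocyte markers were lower in the same libraries too, with a median of -5.75. Whether Pla2g2d is linked to any of these was not tested.

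The calcium-independent Pla2g6 had 294, 229 and 237 reads in grafts, against 623, 718 and 606 before grafting (log2 fold change -1.36 ± 0.14; limma, adjusted p = 0.000242). The secreted Pla2g12a had 357, 257 and 270 reads in grafts, against 795, 987 and 783 before grafting (log2 fold change -1.54 ± 0.16; limma, adjusted p = 0.000248). Both fell by less than Pla2g16. The cytosolic relatives Pla2g4f and Pla2g4b were low throughout, with 3.31 ± 1.57 and 3.29 ± 4.88 reads in grafts against 31.1 ± 10.3 and 28.1 ± 3.64 before grafting (SD, n = 3 each). The log2 fold change of Pla2g4f was -2.91 ± 0.44 (limma, adjusted p = 0.00199). That of Pla2g4b, -3.43 ± 0.79 (limma, adjusted p = 0.0185), lost its call when any of the 3 libraries before grafting or graft replicate 2 was left out, with adjusted p values of limma of 0.0542 to 0.0794. It was -2.71 without graft replicate 1 and -4.37 without graft replicate 3, and 66.5% of its exon bases are shared with the gene Gm28042 on the same strand.

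Pla2g4a and Ptgs2, which act in sequence, are neighbours on chromosome 1 and are read away from each other. Pla2g4a (149829618 to 149961290, minus strand, GRCm38) ends 138740 bp before Ptgs2 (150100031 to 150108227, plus strand). Within the phospholipases, Pla2g4a held 76.0% ± 3.43 of its summed per kb level with Pla2g6 in grafts, against 17.2% ± 4.24 before grafting (SD, n = 3 each). Likewise Pla2g7 held 86.9% ± 2.90 of its sum with Pla2g15 in grafts, against 31.1% ± 2.96 before grafting.

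In the group of phospholipases D and autotaxin, 4 genes were called higher and 1 lower. Enpp2, autotaxin, the secreted enzyme that makes lysophosphatidic acid from lysophosphatidylcholine, had 765, 337 and 294 reads in grafts, against 5985, 4989 and 6251 before grafting. Its log2 fold change was -3.75 ± 0.33 (limma, adjusted p = 0.000137). Pld3, a lysosomal member of the family known to act as a nuclease, had 3106, 2974 and 2531 reads in grafts, against 1203, 1070 and 1034 before grafting (log2 fold change 1.38 ± 0.11; limma, adjusted p = 6.58e-05). Pld4, a related lysosomal nuclease of myeloid cells, had 2182, 2187 and 1875 reads in grafts, against 1314, 1124 and 1137 before grafting, and its share in the sum per kb with Pld3 was 38.0% ± 0.671 in grafts and 47.7% ± 0.611 before grafting (SD, n = 3 each).

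Pld1 and Pld2, the enzymes that make phosphatidic acid from phosphatidylcholine, were called higher by less than 1 on the log2 scale. Pld1 had 697, 732 and 623 reads in grafts and 341, 378 and 376 before grafting (log2 fold change 0.90 ± 0.11; limma, adjusted p = 0.000701). Pld2 had 925, 847 and 847 reads in grafts and 587, 627 and 575 before grafting (log2 fold change 0.55 ± 0.10; limma, adjusted p = 0.00468). With the ribosomal protein genes at no change Pld1 and Pld4 were not called, at 0.14 and 0.04, and Pld2 turned to -0.22. Pld5, a relative with no known enzyme activity, had 1 read over the 3 graft libraries and 31 reads over the 3 libraries before grafting, a ratio of 30.5 of before grafting over grafts (95% interval 5.08 to 1242, counting error only).

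Lpcat2, which makes PAF in activated myeloid cells and also remodels phosphatidylcholine, had 1798, 1956 and 2265 reads in grafts, against 148, 71.9 and 159 before grafting. Its log2 fold change of 4.05 ± 0.28 (limma, adjusted p = 3.19e-05) was far above the spread of either group. Lpcat3, which puts polyunsaturated fatty acids into phospholipids and is widely expressed, had 1137, 953 and 924 reads in grafts, against 1140, 1305 and 1296 before grafting, and was not called (log2 fold change -0.31 ± 0.11; limma, adjusted p = 0.135). Under each of the 4 other scalings Lpcat3 was called lower, with log2 fold changes of -0.43 to -1.08, and so it was without graft replicate 1 (limma, adjusted p = 0.0452). Lpcat2 held 60.4%, 66.4% and 70.3% of the summed per kb level of the 2 genes in grafts, against 11.1%, 5.05% and 10.6% before grafting. The synthetic and the degrading enzyme of PAF, Lpcat2 and Pla2g7, were thus both called higher.

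Lipid phosphate phosphatases, which remove phosphate from lysophosphatidic acid, sphingosine 1-phosphate and related lipids, moved in both directions. Plpp2 had 323, 311 and 268 reads in grafts, against 115, 112 and 106 before grafting (log2 fold change 1.42 ± 0.15; limma, adjusted p = 0.0003). Plpp5 had 944, 874 and 1032 reads in grafts, against 350.0, 427 and 383 before grafting (log2 fold change 1.30 ± 0.12; limma, adjusted p = 0.000125). Plpp6, which acts on presqualene diphosphate, fell, with 317, 213 and 234 reads in grafts against 884, 1180 and 968 before grafting (log2 fold change -1.99 ± 0.18; limma, adjusted p = 0.000108). None of these 3 genes had overlapping groups, which holds for 97.6% of all tested genes.

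Plpp1 had 800.4, 522 and 589 reads in grafts and 328, 390.0 and 287 before grafting, with a log2 fold change of 0.91 ± 0.19 (limma, adjusted p = 0.0101). It was not called without replicate 3 before grafting (limma, adjusted p = 0.0516) or with the ribosomal protein genes at no change, and 25.8% of its exon bases are shared with Mtrex on the other strand. Plpp3 had 2404, 2610 and 1717 reads in grafts and 4021, 4236 and 3512 before grafting (log2 fold change -0.82 ± 0.16; limma, adjusted p = 0.0086). Plpp3 remained the leading phosphatase per kb in both groups, with 40.9% of the sum of the 9 genes in grafts and 59.0% before grafting.

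The Plppr genes are relatives of the phosphatases, known from neurons, that lack the catalytic residues. Plppr3 was called lower (215 ± 17.4 reads in grafts, 401 ± 73.5 before grafting; SD, n = 3 each; log2 fold change -0.88). Plppr2 was called higher (203 ± 13.5 in grafts, 123 ± 27.3 before grafting; SD, n = 3 each; log2 fold change 0.74; limma, adjusted p = 0.0413), but it lost its call under all 4 other scalings, turned to -0.02 with the ribosomal protein genes at no change, and lost its call without any 1 library other than replicate 2 before grafting (limma, adjusted p of 0.0601 to 0.132). Plppr4 had 1 read in grafts and 51 before grafting, a ratio of 50.3 of before grafting over grafts (95% interval 8.62 to 2023, counting error only). Plppr5 had 0 reads in grafts and 13 before grafting. Its mean before grafting was 1.46-fold the floor of 3 reads per library in grafts, leaving out counting error. Replicate 3 before grafting, at 0.984, lay below that floor.

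Sphk1, the inducible sphingosine kinase that makes sphingosine 1-phosphate, was the second largest rise after Ptgs2. Sphk1 had 880, 787 and 969 reads in grafts, against 15.8, 10.1 and 16.7 before grafting (log2 fold change 5.88 ± 0.23; limma, adjusted p = 2.44e-06). Sphk2, the kinase found in nucleus and mitochondria, had 941, 889 and 786 reads in grafts, against 482, 515 and 373 before grafting, a log2 fold change of 0.94 ± 0.15 that was 0.18 and not called with the ribosomal protein genes at no change. Sphk1 held 44.9%, 43.5% and 51.8% of the summed per kb level of the 2 kinases in grafts, against 2.77%, 1.69% and 3.76% before grafting. Of the exon bases of Sphk2, 13% are shared with Dbp and 8.97% with Rpl18, both on the other strand.

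Of the enzymes in this role that remove sphingosine 1-phosphate, Sgpl1 and Sgpp1 were called higher and Sgpp2 was too low to test. Sgpl1, the lyase that degrades it for good, had 7057, 7322 and 6974 reads in grafts, against 3121, 3230 and 2750 before grafting (log2 fold change 1.23 ± 0.10; limma, adjusted p = 5.12e-05). Per kb it led this role in both groups, with 63.7% of the sum in grafts and 63.4% before grafting. Sgpp1, the phosphatase that returns it to sphingosine, had 1438, 1563 and 1484 reads in grafts and 986, 924 and 954 before grafting, with a log2 fold change of 0.65 ± 0.09 that turned to -0.12 with the ribosomal protein genes at no change. Sgpp2, the other phosphatase, had 1.00, 3.88 and 0.989 reads in grafts, against 18.7, 6.08 and 12.8 before grafting, and was too low to test. Sphkap, a kinase-anchoring protein that binds sphingosine kinase, had 41.2, 15.5 and 17.8 reads in grafts, against 1.97, 13.2 and 1.97 before grafting, and was not called (log2 fold change 2.24 ± 0.70; limma, adjusted p = 0.0745). Without replicate 2 before grafting its log2 fold change was 2.99 (limma, adjusted p = 0.011).

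Ceramide synthases moved apart. Cers6, which makes ceramides with long acyl chains such as palmitate, had 1703, 2139 and 2239 reads in grafts, against 597, 593 and 524 before grafting (log2 fold change 1.82 ± 0.13; limma, adjusted p = 2.9e-05). Cers4 had 276, 199.8 and 167 reads in grafts, against 748, 619 and 686 before grafting (log2 fold change -1.70 ± 0.19; limma, adjusted p = 0.000381). Cerk, which phosphorylates ceramide to ceramide 1-phosphate, an activator of Pla2g4a, had 2828, 2550 and 2373 reads in grafts, against 1107, 855 and 907 before grafting (log2 fold change 1.44 ± 0.12; limma, adjusted p = 9.08e-05). Cerk led the per kb sum of the 3 genes in both groups, with 68.6% in grafts and 62.3% before grafting.

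Of the sphingomyelinases and ceramidases, 4 were called higher, 3 lower and 1 was not called. Smpdl3b, a membrane-bound relative of acid sphingomyelinase, had 404, 546 and 413 reads in grafts, against 71.0, 50.7 and 56.1 before grafting (log2 fold change 2.92 ± 0.20; limma, adjusted p = 2.87e-05). Smpd5, a neutral sphingomyelinase of mitochondria in mouse, had 124, 178 and 170 reads in grafts, against 54.2, 44.6 and 49.2 before grafting (log2 fold change 1.64 ± 0.22; limma, adjusted p = 0.00107). Asah1, the lysosomal acid ceramidase, had 5847, 5136 and 4849 reads in grafts, against 1927, 2004 and 2084 before grafting (log2 fold change 1.39 ± 0.10; limma, adjusted p = 3.4e-05). The secreted Smpdl3a, which cleaves nucleotides, had 2842 ± 75.0 reads in grafts and 1456 ± 64.5 before grafting (SD, n = 3 each), a log2 fold change of 0.97 that was 0.20 and not called with the ribosomal protein genes at no change.

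The fall in this role was largest for Smpd3, the neutral sphingomyelinase known for a part in vesicle release. Smpd3 had 94.4, 60.1 and 16.8 reads in grafts, against 662, 748 and 679 before grafting (log2 fold change -3.89 ± 0.54; limma, adjusted p = 0.00159), which was -3.19 without graft replicate 3. The grafts differed widely among themselves but all lay far below the libraries before grafting. Smpd1, the lysosomal acid sphingomyelinase, averaged 628 ± 54.6 reads in grafts and 1254 ± 127 before grafting (SD, n = 3 each), with a log2 fold change of -0.996. Asah2, the neutral ceramidase, had 394, 500.4 and 474 reads in grafts, against 903, 901 and 859 before grafting, a log2 fold change of -0.966. Smpd4, a neutral sphingomyelinase of the nuclear envelope and endoplasmic reticulum, was not called (423 ± 7.70 in grafts, 522 ± 20.3 before grafting; SD, n = 3 each; log2 fold change -0.30; limma, adjusted p = 0.101), but was called lower under each of the 4 other scalings. Asah1 held 94.1% ± 1.13 of its summed per kb level with Asah2 in grafts and 75.7% ± 1.20 before grafting.

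Summed per kb over the listed genes of a role, 8 of the 11 roles had groups that did not overlap. For single genes this held in 97.6% of those tested, and sums over other genes were not computed. Prostanoid synthesis genes summed to 2702 ± 942 normalized reads per kb in grafts and 422 ± 65.9 before grafting, a ratio of 6.41. Leukotriene synthesis genes summed to 1590 ± 258 in grafts and 363 ± 22.4 before grafting (SD, n = 3 each), a ratio of 4.39. Among these 8, the epoxide hydrolase sum was the one that was lower in grafts, with 232 ± 48.6 in grafts against 2872 ± 404 before grafting. The lipid phosphate phosphatase sum overlapped as deposited, at 1738 ± 188 in grafts and 2104 ± 213 before grafting (SD, n = 3 each), but under each of the 4 other scalings it was lower in grafts with no overlap, at ratios of 0.48 to 0.76. As deposited, the sums of phospholipases D and autotaxin differed by less than the spread, at 1856 ± 196 in grafts and 1839 ± 138 before grafting. Enpp2 led before grafting with 54.0% and Pld3 led in grafts with 52.9%. This sum was lower in grafts with the ribosomal protein genes at no change, at 1418 against 2405 before grafting, with no overlap. It takes in the nucleases Pld3 and Pld4, which averaged 982 and 601 per kb in grafts, against 377 and 344 before grafting. Pld1, Pld2 and Enpp2 averaged 52.8, 140 and 80.5 per kb in grafts, against 28.2, 95.4 and 994 before grafting.

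The summed phospholipase A level was 1.53-fold that of fat before grafting, and here too the leading gene differed, Pla2g7 holding 79.0% in grafts and Pla2g16 59.6% before grafting. With the ribosomal protein genes at no change the ratio of this sum was 0.90, that of the sphingomyelinases and ceramidases 0.99 and that of the acyltransferases 1.26, each with overlapping groups. The ratios of the prostanoid and leukotriene synthesis sums were still 3.78 and 2.56 under that scaling.

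**Figure D3:**
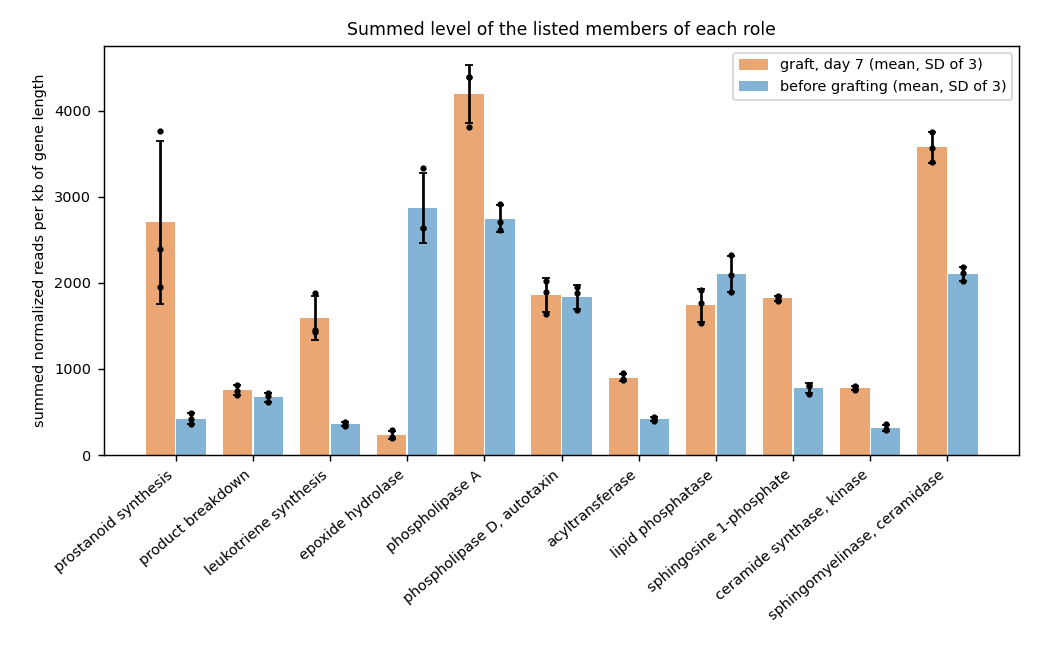
Summed normalized reads per kb of gene length for the listed genes of each role. Bars are the mean of 3 graft libraries (orange) and of 3 libraries before grafting (blue), error bars the SD, and points single libraries. Prostanoid synthesis is higher in grafts (2702 against 422) and epoxide hydrolases are lower (232 against 2872), while phospholipases D with autotaxin are level as deposited (1856 against 1839). The level sum takes in the nucleases Pld3 and Pld4.

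Shares within 13 pairs of related genes were compared, since a share does not depend on the scaling of a library. In each of the 13 pairs the 3 graft libraries did not overlap with the 3 libraries before grafting. Single genes did not overlap in 97.6% of those tested, and shares of other gene pairs were not computed. The exact permutation test (two-sided) gave p = 0.1 for each, the smallest value that 3 against 3 libraries allow, and 0.1 after Benjamini-Hochberg adjustment over the 13 pairs, so none can pass 0.05. The largest differences in share, in percentage points of grafts minus before grafting, were 58.8 for Pla2g4a with Pla2g6, 56.8 for Ephx1 with Ephx2, 56.8 for Lpcat2 with Lpcat3 and 55.8 for Pla2g7 with Pla2g15. The smallest was 4.64 for Pld1, with 27.4% ± 1.75 in grafts and 22.8% ± 1.05 before grafting (SD, n = 3 each). Of Plpp1 with Plpp3, Plpp1 held 37.5%, 26.5% and 38.2% in grafts, against 12.9%, 14.3% and 12.9% before grafting. The share of Sgpp1 with Sgpl1 was lower in grafts, at 18.6% ± 0.391 against 25.6% ± 1.83 before grafting.

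**Figure D4:**
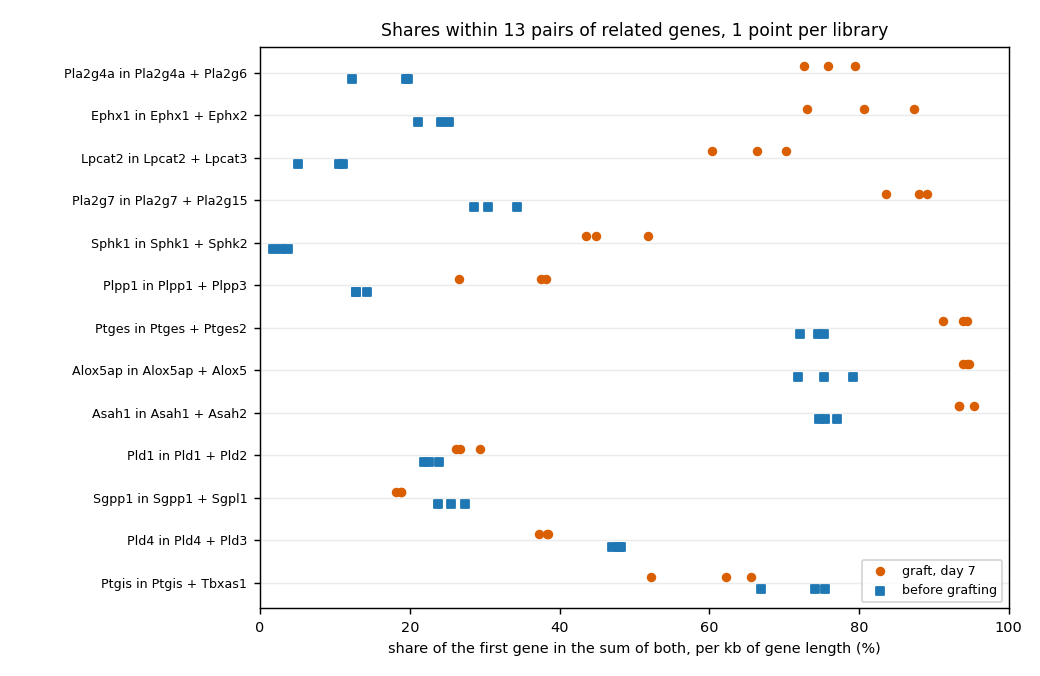
Share of the first gene in the per kb sum of a pair, in percent, with 1 point per library. Orange circles are grafts and blue squares fat before grafting. Groups do not overlap in any of the 13 pairs, nor in 97.6% of all single tested genes. The share of Sphk1 averaged 46.7% in grafts against 2.74% before grafting.

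Genes that act with these enzymes were taken from 9 lists of receptors, transporters and neighbouring enzymes. Of 151 genes on them, 102 were listed and 98 tested, of which 45 were called higher and 43 lower in grafts, with a median log2 fold change of 0.35 against 0.28 for all tested genes. With the ribosomal protein genes at no change 27 were called higher and 49 lower. Neither share of calls stands far from the background of 41.3% and 39.2%.

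Receptors of prostanoids and leukotrienes were called higher in 6 and lower in 2 of 9 tested genes. Of those called higher, Ptgfr (log2 fold change 1.49 ± 0.38) and Ptger4 had calls that did not hold throughout. Ptgfr lost its call with equal totals, equal upper quartiles or the ribosomal protein genes at no change. Its call was also lost without graft replicate 2 or 3 or any 1 library before grafting (limma, adjusted p of 0.0562 to 0.0949). Ptger3, the prostaglandin E2 receptor through which lipolysis is held back in adipocytes, had 123, 45.6 and 28.7 reads in grafts, against 1527, 1949 and 2184 before grafting (log2 fold change -5.07 ± 0.47; limma, adjusted p = 0.000175). Ptger2, a receptor of the same ligand that raises cyclic AMP, had 304, 378 and 349 reads in grafts, against 65.1, 78.0 and 60.0 before grafting (log2 fold change 2.33 ± 0.18; limma, adjusted p = 5.03e-05). Ptger3 and Ptger2 therefore moved in opposite directions. Ptger4, another receptor of prostaglandin E2, was called higher (log2 fold change 0.52 ± 0.13, limma, adjusted p = 0.0293). Its call was lost under all 4 other scalings, and it turned to -0.25 with the ribosomal protein genes at no change. The call was also lost without any 1 graft library or without replicate 2 or 3 before grafting. Ltb4r1, the high-affinity leukotriene B4 receptor of myeloid cells, had 543, 507 and 595 reads in grafts, against 32.5, 29.4 and 46.2 before grafting (log2 fold change 3.91 ± 0.21; limma, adjusted p = 8.94e-06). Cysltr1, a receptor of cysteinyl leukotrienes, had a log2 fold change of 1.97 ± 0.13, and Gpr17, a related receptor, of -3.44 ± 0.39. Ptgir was also called higher (log2 fold change 1.75 ± 0.18; limma, adjusted p = 0.000221) and kept its call in every alternative.

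Of 11 tested receptors of lipoxins, resolvins, PAF and fatty acid metabolites, 7 were called higher and 4 lower. Fpr2, the formyl peptide receptor that also binds lipoxin A4 and annexin A1, had 2979, 3536 and 3762 reads in grafts, against 8.87, 4.05 and 9.84 before grafting (log2 fold change 8.71 ± 0.29; limma, adjusted p = 1.39e-06). The 3 grafts were close to each other. Fpr3, a related receptor, had 23.1, 30.1 and 27.7 reads in grafts and no read before grafting. Hcar2, the nicotinic acid and ketone body receptor, had 4386, 8493 and 8839 reads in grafts, against 700.1, 643 and 531 before grafting (log2 fold change 3.47 ± 0.26). Ptafr, the PAF receptor, chosen after its values were seen, had 3271, 4660 and 3813 reads in grafts, against 589, 423 and 331 before grafting (log2 fold change 3.15 ± 0.22; limma, adjusted p = 2.9e-05). No library of grafts overlapped with one before grafting in these genes, as in 97.6% of all tested genes. Hcar1, the lactate receptor of adipocytes, Ffar4, a long-chain fatty acid receptor, and Gpr18 were lower, with log2 fold changes of -6.14 ± 0.59, -5.39 ± 0.77 and -1.32 ± 0.24. Without graft replicate 3 the log2 fold change of Hcar1 was -5.39 and that of Ffar4 -4.37.

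All 4 listed sphingosine 1-phosphate receptors were called, 2 in each direction. S1pr2 had 1200, 1520 and 1498 reads in grafts, against 204, 204 and 245 before grafting (log2 fold change 2.68 ± 0.14; limma, adjusted p = 6.82e-06). S1pr3 followed with 2.15 ± 0.17, and neither gene had overlapping groups, as in 97.6% of all tested genes. S1pr1, the receptor of endothelium and lymphocytes, had one of -0.76 ± 0.09, and S1pr4, of leukocytes, one of -2.43 ± 0.27. Among 7 tested receptors of lysophosphatidic acid and other lysophospholipids, 2 were called higher and 4 lower. Lpar1, a receptor of the product of autotaxin, had 618, 806 and 850 reads in grafts, against 410, 385 and 405 before grafting (log2 fold change 0.91 ± 0.14), and was not called with the ribosomal protein genes at no change. Gpr55 was higher by 1.18 ± 0.31 (limma, adjusted p = 0.037), but lost its call under all 4 other scalings and without graft replicate 2 or 3 or replicate 2 or 3 before grafting (limma, adjusted p of 0.117 to 0.142), and with the replicate number as a block (limma, adjusted p = 0.119). The lysophosphatidylserine receptors of immune cells Gpr174, P2ry10 and Gpr34 were lower, with log2 fold changes of -4.49 ± 0.30, -2.29 ± 0.53 and -1.54 ± 0.30. P2ry10 lost its call without graft replicate 3 or any library before grafting (limma, adjusted p of 0.0523 to 0.09) and with the replicate number as a block (limma, adjusted p = 0.0578), and was -2.92 without graft replicate 2. The T and NK cell, B cell and adipocyte markers were lower in the same libraries, and their part in this was not tested.

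**Figure D5:**
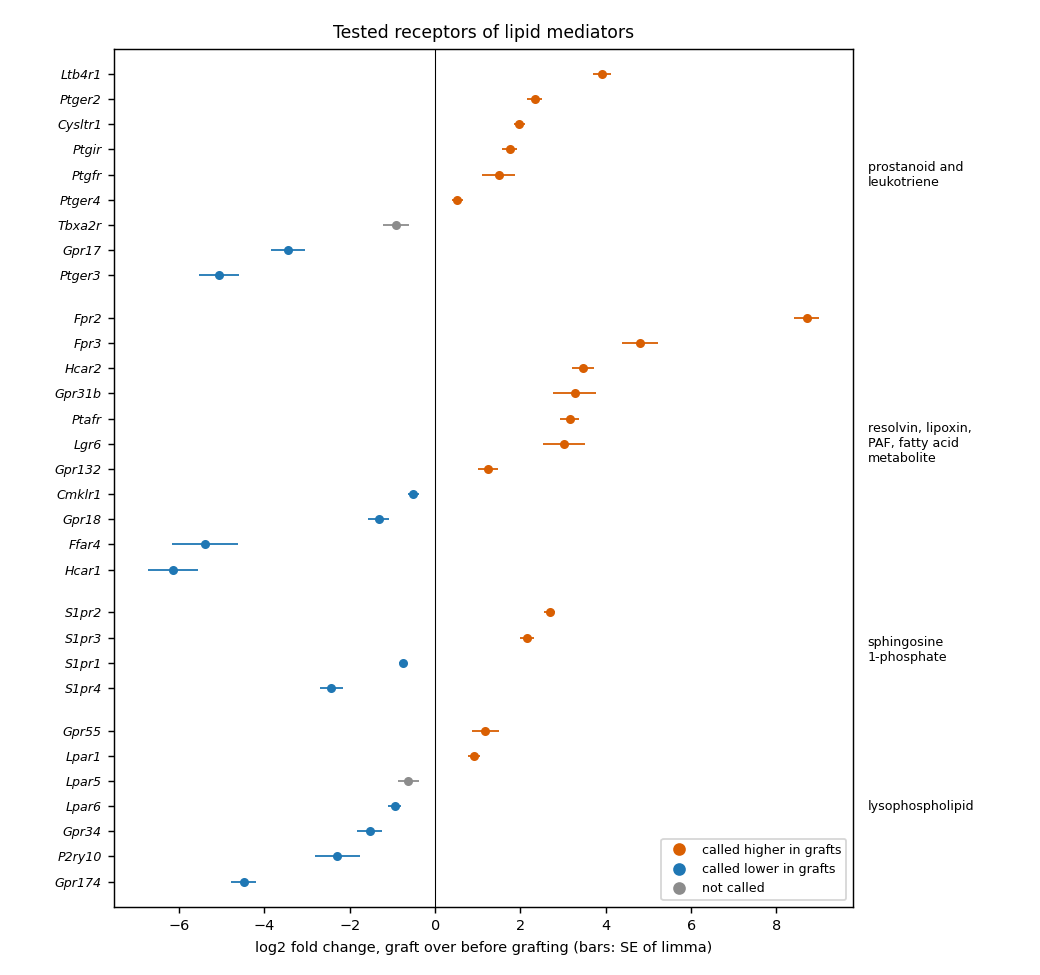
Log2 fold change of grafts over before grafting, with the SE of limma as bars, for the tested receptors of lipid mediators on the 4 receptor lists. Orange points were called higher in grafts, blue points lower, grey points not called. Fpr2 is farthest to the right at 8.71 and Hcar1 farthest to the left at -6.14. Fpr3 had no read before grafting, so its plotted value depends on the pseudocount.

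Eicosanoid transporters and glutathione-dependent enzymes were called higher in 4 and lower in 8 of 15 tested genes. Abcc1, the exporter of leukotriene C4, had 4482, 6395 and 5251 reads in grafts, against 1318, 1692 and 1374 before grafting (log2 fold change 1.87 ± 0.15; limma, adjusted p = 6.72e-05). Dpep2, a dipeptidase of cysteinyl leukotrienes, rose by 2.70 ± 0.30 and Akr1b8, an aldo-keto reductase, by 2.62 ± 0.14 on the log2 scale. Gsta4, Mgst3 and Mgst2, glutathione transferases of lipid peroxidation products and leukotrienes, fell, with log2 fold changes of -3.63 ± 0.20, -3.12 ± 0.22 and -2.19 ± 0.22. Libraries of the 2 groups did not overlap in any of these 6 genes, as in 97.6% of all tested genes.

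Of 8 tested arachidonate cytochrome P450 genes, 3 were called higher and 5 lower. Cyp4f18, which oxidises leukotriene B4 in mouse neutrophils, had 773, 1364 and 1112 reads in grafts, against 304, 174 and 213 before grafting (log2 fold change 2.23 ± 0.26; limma, adjusted p = 0.000455). Cyp2s1 and Cyp4f16 were higher by 2.29 ± 0.40 and 1.10 ± 0.11, and Cyp2j9, Cyp2u1 and Cyp2j6 had log2 fold changes of -2.01 ± 0.23, -1.42 ± 0.32 and -1.03 ± 0.15. The call of Cyp4f16 was lost with the ribosomal protein genes at no change, and that of Cyp2u1 without replicate 2 or 3 before grafting (limma, adjusted p of 0.0659 and 0.0601).

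Of 16 tested genes of arachidonate activation and remodelling, 7 were called higher and 8 lower. Acsl4, the acyl-CoA synthetase that prefers arachidonic acid, had 2433, 2347 and 1852 reads in grafts, against 727, 820 and 872 before grafting (log2 fold change 1.45 ± 0.13; limma, adjusted p = 0.000114). Acsl1, the main acyl-CoA synthetase of adipocytes, had 2647, 1668 and 1477 reads in grafts, against 31225, 39855 and 30617 before grafting (log2 fold change -4.17 ± 0.22; limma, adjusted p = 8.46e-06). The 2 synthetases thus moved apart. Acsl6 and Anxa2 were higher by 3.74 ± 0.77 and 1.55 ± 0.13, Acsl6 by 4.37 without replicate 1 and by 2.79 without replicate 2 before grafting, and the endocannabinoid hydrolases Faah and Mgll had log2 fold changes of -3.91 ± 0.50 and -3.77 ± 0.38.

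Sphingolipid enzymes outside the name rule were called higher in 9 and lower in 5 of 18 tested genes. Sgms2, the sphingomyelin synthase of the plasma membrane, had 1479, 2969 and 2422 reads in grafts, against 74.0, 97.3 and 82.6 before grafting (log2 fold change 4.69 ± 0.25; limma, adjusted p = 8.94e-06). The alkaline ceramidases moved apart, Acer3 with a log2 fold change of 1.50 ± 0.10 and Acer2 of -3.26 ± 0.31. Ormdl3, an inhibitor of the first step of sphingolipid synthesis, had 1153, 914 and 952 reads in grafts, against 4163, 5011 and 3900.0 before grafting (log2 fold change -2.11 ± 0.13; limma, adjusted p = 1.73e-05). Ugcg, glucosylceramide synthase, was higher by 1.44 ± 0.18, and Fa2h was lower, with -1.73 ± 0.32. The call of Ugcg was lost with the ribosomal protein genes at no change.

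Intracellular PAF acetylhydrolases and other phospholipases were called higher in 5 and lower in 5 of 10 tested genes. Pafah1b3, a subunit of an intracellular PAF acetylhydrolase, had 296, 281 and 287 reads in grafts, against 107, 79.0 and 87.5 before grafting (log2 fold change 1.66 ± 0.17; limma, adjusted p = 0.000234). Liph and Pnpla7 were higher by 3.31 ± 0.59 and 0.90 ± 0.14, the call of Pnpla7 being lost with the ribosomal protein genes at no change. Pnpla2, the triglyceride lipase of adipocytes and itself on the adipocyte marker list, had 2451, 1332 and 1259 reads in grafts, against 37092, 51487 and 38624 before grafting (log2 fold change -4.71 ± 0.26; limma, adjusted p = 1e-05). Abhd3 and Ddhd2 had log2 fold changes of -2.60 ± 0.34 and -1.76 ± 0.15.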

How the data were processed

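Per the labels' protocols, Trizol extracts of fat tissue were made into Illumina libraries of total RNA. The deposited values are a signal: reads per gene divided by 1 size factor per library by the authors, read from the values, which were 100% whole multiples of 1 step per library (within 0.01 reads; steps 0.969786 to 1.013036). Gene lengths in base pairs were also deposited (unit: other) and were used for values per kb. The submitters' processing notes name Bowtie 0.12.2, HISAT2 2.0.5, mm8 and mm9, but 12029 of 12163 listed genes lay within 1000 bp of GENCODE M21 genes of GRCm38. For the counter, the strand use and the gene filter, nothing is stated (not given in the sources used here). Since 97.6% of tested genes had groups that did not overlap, the listed genes look chosen for their difference, though no source used here says how. Depth therefore covers listed genes only, and the variance prior rests on them.

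Genes reaching 10 in 3 or more libraries (10854) were tested with limma 3.58.1 in R 4.3.3, on log2(value + 1), with trend and robust moderation, group as the only term and two-sided. All log2 fold changes are on that scale, which understates changes of low genes, and set grafts over fat before grafting. P-values were adjusted by Benjamini-Hochberg over the 55450 genes of the annotation, those not listed taking the highest p, and an adjusted p under 0.05 was a call. Shares of pairs were compared with the exact permutation test, and ratios at 1 read carry an exact binomial 95% interval. Python 3.11.15 was used for tables (pandas 2.3.3), shares and intervals (scipy 1.17.1, numpy 2.4.6).

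The enzyme genes and lists were chosen with earlier results of these data known. Genes are given with every library where they were called with a log2 change of 1 or more in size and a mean of 100 or more reads in the higher group (at most 6 per role), or belong to a described pair. Ptgds, Ltc4s, Sgpp2 and Sphkap are also given with every library, though none of them was called. Of each list, up to 3 called genes with the largest change in each direction are named, and Ptgir, Ptgfr, Ptger4 and Ptafr besides. Promoters were matched by symbol to RefSeq (GRCm38.p6), for 45 of 57 genes. Of the 57 genes, 23 share exon bases with another annotated gene, 1 of them over more than 50% of its exons. Alternatives were 4 other scalings, pseudocounts of 0.5 and 5, no filter, adjustment over the tested genes alone, a replicate block, and leaving out each library. Count models on recovered reads had been planned and were not run. Recovered reads serve only for the totals and for genes at 0 or 1 read in grafts.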

Additional observations from a re-analysis of the deposited data

How the results depend on the processing

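Of the 48 calls among the enzyme genes, 36 held in all 15 alternatives and 44 in all but the scaling with the ribosomal protein genes at no change. Under that scaling 18 enzyme genes were called higher and 22 lower (29 and 19 as deposited), 27 list genes higher and 49 lower (45 and 43), and 1909 of all tested genes higher and 5543 lower (4479 and 4251). Pld2 turned to -0.22, Plppr2 to -0.022 and Sgpp1 to -0.12 on the log2 scale, none of them called. That scaling lowers every log2 fold change by about 0.77. The median log2 fold change of all tested genes was -0.49 there. It was 0.17 with median ratios, 0.15 with equal totals and 0.05 with equal upper quartiles. Leaving out 1 library gave 27 to 30 enzyme genes called higher and 18 to 21 lower, 40 to 45 list genes higher and 39 to 42 lower, and 3752 to 4130 of all tested genes higher and 3326 to 4014 lower. Without division by gene length the differences in share were 22.6 for Ptges, 33.6 for Alox5ap and 22.7 for Asah1, against 19.2, 18.9 and 18.3 percentage points per kb. Deviations of same-numbered libraries had correlations of -0.157, -0.127 and 0.041, and those of differently numbered libraries had -0.066 to 0.169. With 3 libraries per group this cannot settle whether the replicate numbers pair the libraries, and no label states it. With the number as a replicate block 28 enzyme genes were called higher and 19 lower, 42 and 42 list genes, and 3912 and 3644 of all tested genes, and Plppr2 alone of the 48 lost its call. The planned edgeR and DESeq2 alternatives were not run. Genes under the filter and those near 0 reads in grafts are limited by depth, and smaller changes by the scaling.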

Other observations

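Beside Ptgs2, 2 non-coding genes named after it were listed, and they were chosen after their values were seen. Ptgs2os2 had 67.3, 159 and 113 normalized reads in grafts, against 6.90, 5.07 and 4.92 before grafting (log2 fold change 4.03 ± 0.38; limma, adjusted p = 0.000142). Ptgs2os, whose annotated end lies 67 bp before the start of Ptgs2, had 15.1, 14.6 and 15.8 reads in grafts, against 1.97, 4.05 and 0.984 before grafting (log2 fold change 2.38 ± 0.47; limma, adjusted p = 0.00871). In Ptgs2os2 as in Ptgs2, graft replicate 2 was highest and graft replicate 1 lowest, whereas the 3 grafts were level in Ptgs2os. Ptgs2os2 (150159043 to 150164948) lies beyond the annotated end of Ptgs2 at 150108227, so neither gene overlaps Ptgs2 as annotated. Whether these reads are separate transcripts was not tested.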
